A study of Mus musculus with 22 samples.

Results

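The 41 genes described here make up a ribosome biogenesis module of the mouse: nucleolar proteins, RNA polymerase I and its factors, small nucleolar RNA-protein particles (snoRNPs), and assembly factors of the small and the large ribosomal subunit. They were listed by symbol for their function, and all 41 were found by symbol in both deposited tables, out of 24063 genes in the first and 24019 in the second. Transcripts were measured by RNA sequencing of 22 C57BL/6 mouse liver tumours raised by hydrodynamic tail-vein injection, a method that brings plasmids into hepatocytes. The MYC oncogene was in the genotype of every tumour. Its partner was β-catenin (written bcat or CTNNB1 in the genotypes) or p53 (written sgp53 in the second set's names), and each construct carried luciferase alone (luc) or lucOS, luciferase with model antigens. Set 1 held 2 lucOS β-catenin, 3 lucOS p53, 4 luc β-catenin and 3 luc p53 tumours, and set 2 held 3 lucOS β-catenin, 3 luc β-catenin and 4 lucOS p53 tumours. The labels list no treatment, give neither ages nor the promoter of any construct, and do not say whether each tumour came from its own animal. The p-values below therefore measure the spread between these tumours only.

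Ribosomes are built in the nucleolus. RNA polymerase I, placed on ribosomal DNA by UBTF and recruited there by RRN3, makes the long precursor of ribosomal RNA, and box C/D and box H/ACA snoRNPs guide its methylation and pseudouridylation. The small-subunit processome then cuts and folds the precursor of the small subunit, while factors such as the PES1, BOP1 and WDR12 complex mature the large one. MYC is known to raise many of these genes, and p53 to be stabilised when ribosome assembly is disturbed.

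Values are the authors' normalized signal: whole reads divided by 1 scaling factor per tumour. Reads summed over 1 row per gene ran from 33.706 M to 54.873 M per tumour in set 1 and from 33.551 M to 50.116 M in set 2. The least covered member, Polr1e, still had at least 476 reads in every tumour of set 1 and 895 in every tumour of set 2, so counting error was small beside the spread between tumours. All 41 members passed the filter on low values in both sets. Trp53, the gene targeted in the p53 tumours, had a signal of 3296 to 4994 in the β-catenin tumours of set 1 against 1423 to 2280 in the p53 tumours, and of 2631 to 4405 against 1345 to 2223 in set 2. Hepatocyte markers (all 7 of 7 detected) were present in every tumour. The tables were scaled separately, so levels are compared within a set only.

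RefSeq promoter windows (GRCm38.p6, 250 bases before to 50 bases after a start) were matched for 37 of the 41 members. The E-box CACGTG, the textbook binding sequence of MYC with its partner MAX and its own reverse complement, was found in the windows of 7 of these 37 genes (18.9%), against 8.09% of the 27025 genes in the whole table. The related sequence CGCGTG, searched on both strands and so also as CACGCG, was found in 15 of 37 (40.5%), against 10.5% of all genes; neighbouring matches can share bases. The members' windows were also richer in CG dinucleotides, with a median of 23.5 a window against 7 in all windows. Among windows with 13 to 31 CG dinucleotides, which 23 member windows had, the shares were closer: 17.4% of the member windows against 11.2% of 8792 windows for CACGTG, and 43.5% against 18.6% for CGCGTG or CACGCG. A match describes letters, not binding. Of the members, Rrn3 and Nop2 alone held CACGTG upstream of the start. Their 250 upstream bases are shown with those of Nolc1 and Nip7, which held the related sequence upstream and were lower in β-catenin tumours as described below. Mybbp1a and Ubtf, also called lower in set 1, held it upstream as well. So did Pes1, Polr1c and Utp14a, which were called in no driver comparison. In Ddx10, also called lower in set 1, the match began at -3 and ran across the start. Capitals mark the motif, and positions count back from the start.
Rrn3 (chr16:13780449-13780698, plus strand, CACGTG at -215 and -48): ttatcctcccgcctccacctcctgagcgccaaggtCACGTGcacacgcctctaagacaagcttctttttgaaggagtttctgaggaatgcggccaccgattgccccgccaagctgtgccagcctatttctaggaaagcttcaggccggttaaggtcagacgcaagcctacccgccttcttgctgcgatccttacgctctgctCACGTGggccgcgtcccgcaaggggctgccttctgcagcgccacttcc
Nop2 (chr6:125131633-125131882, plus strand, CACGTG at -60): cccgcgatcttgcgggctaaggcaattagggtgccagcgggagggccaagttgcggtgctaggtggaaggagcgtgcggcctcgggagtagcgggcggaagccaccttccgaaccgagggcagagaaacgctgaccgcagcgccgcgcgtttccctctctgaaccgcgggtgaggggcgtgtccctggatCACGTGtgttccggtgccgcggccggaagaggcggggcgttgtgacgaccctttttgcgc
Nolc1 (chr19:46075597-46075846, plus strand, CGCGTG at -25): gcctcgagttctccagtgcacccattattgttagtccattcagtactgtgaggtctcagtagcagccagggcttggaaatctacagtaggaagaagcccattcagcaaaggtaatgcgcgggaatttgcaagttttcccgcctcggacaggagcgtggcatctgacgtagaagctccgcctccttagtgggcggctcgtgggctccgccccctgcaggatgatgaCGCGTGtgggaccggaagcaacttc
Nip7 (chr8:107056627-107056876, plus strand, CACGCG at -41): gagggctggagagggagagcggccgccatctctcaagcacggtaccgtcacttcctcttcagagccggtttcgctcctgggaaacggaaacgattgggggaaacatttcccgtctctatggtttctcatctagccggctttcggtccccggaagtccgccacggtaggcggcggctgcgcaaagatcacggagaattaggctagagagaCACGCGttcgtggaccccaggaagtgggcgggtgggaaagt

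The design first asks how the second driver, β-catenin or p53, bears on these genes. In set 1, 22 of the 41 members were called lower in β-catenin tumours when both constructs were averaged (18.6% of all genes), 13 among luc tumours (9.16%) and none among lucOS tumours (2.59%). Among luc tumours, the 13 of 41 called lower, with none higher, stood against 9.16% of all 16108 genes tested called lower and 5.93% higher (limma, adjusted p under 0.05). The median difference of the members was -0.67 (log2, β-catenin minus p53), against -0.20 for all genes. Of 41 members 40 were negative, while 39.02% of all genes were positive. Among lucOS tumours, where only 2 β-catenin tumours were available, none of the 41 was called. Of all genes, 2.59% were called lower and 1.62% higher. The unadjusted limma p was under 0.05 for 14 members, all of them lower. Shares of all genes at unadjusted thresholds are not given, here or below. The members' median among these lucOS tumours was -0.47, against -0.15 for all genes. Neither edgeR nor DESeq2 called a member among the lucOS tumours of set 1.

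Averaged over both constructs, which uses the same 12 tumours again, 22 of 41 members were called lower in β-catenin tumours and none higher, against 18.6% of all genes called lower and 9.73% higher. The members' median difference was -0.60, against -0.16 for all genes. Because the median of all genes was not at 0 under the deposited scaling, the same test was run after TMM scaling (edgeR's trimmed mean of M-values), which puts the median of all genes near 0: 12 members were then called lower over both constructs, against 10.6% of all genes, 6 among luc tumours, against 4.22%, and none among lucOS tumours, against 1.26%. The 12 were Nolc1, Fbl, Nop56, Gar1, Polr1b, Ubtf, Mybbp1a, Wdr43, Rrp9, Nob1, Nip7 and Rrp1b, and the 6 were Nolc1, Nop56, Ubtf, Wdr43, Nip7 and Rrp1b; every other call of a member in these comparisons was lost under that scaling. Of the 22 members called over both constructs, 9 were called in each of the 12 fits that left out 1 tumour: Nolc1, Fbl, Nop56, Gar1, Polr1b, Ubtf, Rrp9, Nob1 and Rrp1b. None of the 13 calls among luc tumours held in all 7 such fits, since each was lost without luc p53 tumour 1 or without luc p53 tumour 2. Calls over all genes fell in these fits as well. Of 16108 genes, 1475 were called lower among luc tumours with every tumour, 341 without luc p53 tumour 1 and 489 without luc p53 tumour 2. Over both constructs, all genes called lower were 2994 with every tumour, 2262 without luc p53 tumour 1 and 3125 without lucOS p53 tumour 2. The share of all genes called in each of the 12 fits is not given here.

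Set 2 gave a different count. Of 41 members, 4 were called lower in lucOS β-catenin than in lucOS p53 tumours (9.76%) and none higher, close to the 10.9% of all 15625 genes called lower (6.08% were called higher). The members' median difference was -0.29, against -0.16 for all genes. The 4 members were Ubtf, Utp15, Rrp9 and Ddx10, and only Ddx10 was called after TMM scaling, where 6.75% of all genes were called lower. The result of set 2 rested on lucOS β-catenin tumour 3: without it no member was called and the members' median was 0.036. Of all genes, 757 were called lower without that tumour, against 1706 with it, and their median stayed at -0.16. No member was called without lucOS p53 tumour 1 either, where 748 of all genes were called lower. In this set 3 of the 4 p53 tumours have names that begin with AL, and the remaining p53 tumour and all β-catenin tumours have names that begin with JAX. Against that 1 p53 tumour alone, the members' median was -0.43, against -0.16 for all genes.

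**Figure D1:**
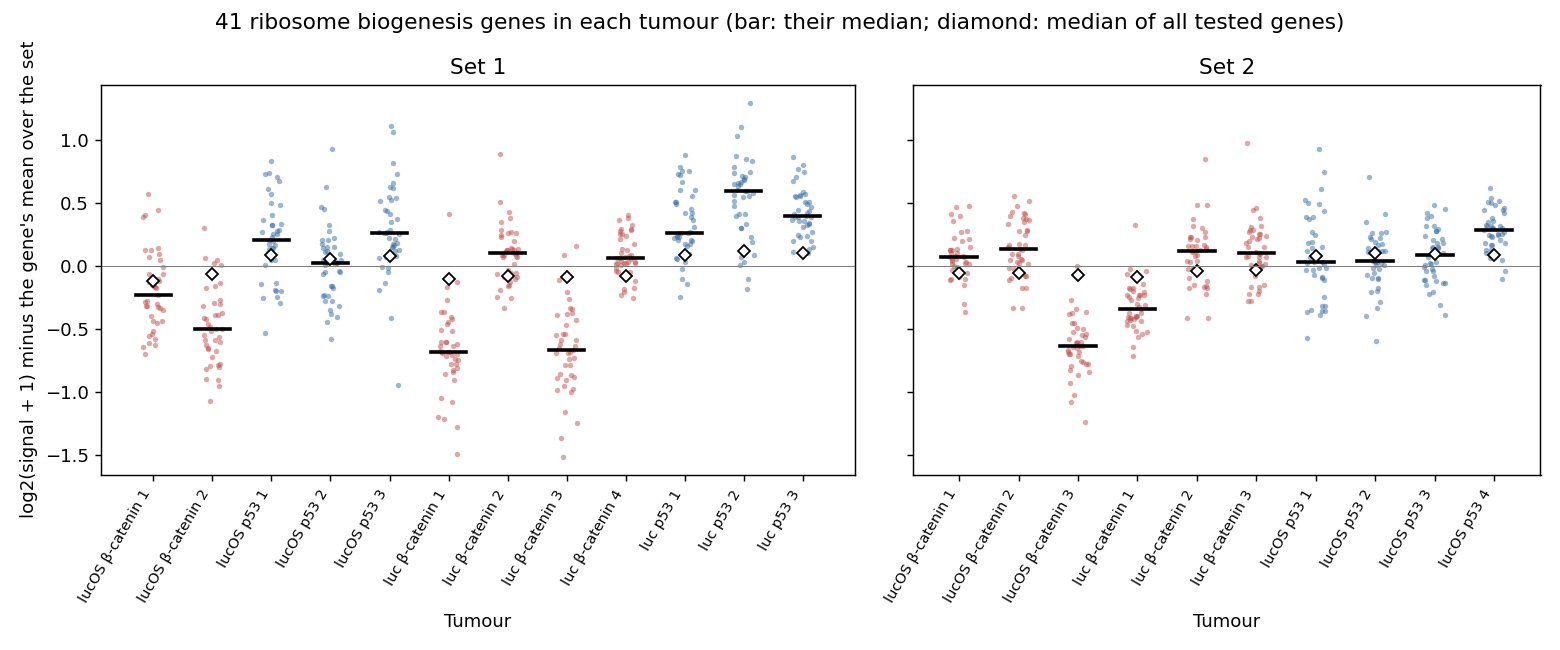
Each point is 1 of the 41 members in 1 tumour, as its log2(signal + 1) minus its mean over the set (vertical axis), for every tumour of set 1 and set 2 (horizontal axis; red, β-catenin; blue, p53). The bar is the members' median and the diamond that of all tested genes: luc β-catenin tumours 1 and 3 of set 1, at -0.68 and -0.66, and lucOS β-catenin tumour 3 of set 2, at -0.63, lie lowest.

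The β-catenin tumours differed much among themselves. The members' median deviation from their own mean over the set was -0.68, 0.11, -0.66 and 0.06 in luc β-catenin tumours 1 to 4, against 0.27, 0.60 and 0.40 in luc p53 tumours 1 to 3. It was -0.23 and -0.50 in lucOS β-catenin tumours 1 and 2, against 0.21, 0.02 and 0.26 in lucOS p53 tumours 1 to 3. No β-catenin tumour of set 1 therefore reached its own p53 group, although luc β-catenin tumours 2 and 4 lay above the lowest lucOS p53 tumour. In set 2 it was 0.07, 0.14 and -0.63 in lucOS β-catenin tumours 1 to 3 and -0.34, 0.12 and 0.10 in luc β-catenin tumours 1 to 3, against 0.04, 0.04, 0.09 and 0.29 in lucOS p53 tumours 1 to 4. There the β-catenin and p53 tumours overlapped, and lucOS β-catenin tumour 3 held the lowest value of the set for 37 of 41 members.

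The same spread appears gene by gene. Within the luc β-catenin group of set 1 the median SD of the members was 0.50 (log2), against 0.28 over the 10397 well-covered genes, and within the lucOS β-catenin group of set 2 it was 0.48, against 0.31 over 10532 such genes. In the p53 groups the members' median SD was 0.30 (lucOS, set 1), 0.18 (luc, set 1) and 0.17 (lucOS, set 2), against 0.32, 0.26 and 0.21 over all genes. The other β-catenin groups were at 0.25 (lucOS, set 1) and 0.27 (luc, set 2), against 0.24 and 0.25, so the wide spread of the members was that of 2 of the 4 β-catenin groups.

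Several marker levels moved with the driver in these bulk samples, in which fewer cells of a type and less RNA per cell cannot be told apart. The summed signal of 7 proliferation markers ran from 18553 to 39501 in lucOS β-catenin tumours against 51861 to 76690 in lucOS p53 tumours of set 1. It ran from 22033 to 44172 in luc β-catenin against 46601 to 57620 in luc p53 tumours, and from 19854 to 55127 in lucOS β-catenin against 63798 to 83757 in lucOS p53 tumours of set 2. Proliferation sums were thus lower in every β-catenin group without overlap, and no marker of the list was at 0. The sum of 7 hepatocyte markers was higher in β-catenin tumours of set 1, at 724549 to 757513 against 368929 to 506202 (lucOS) and 673883 to 906397 against 193019 to 464415 (luc). The set 2 sums ran from 146402 to 697210 in lucOS β-catenin against 146202 to 276526 in lucOS p53 tumours, which overlapped.

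The 4 bile duct markers summed to 43.0 to 224 in lucOS β-catenin against 667 to 3844 in lucOS p53 and to 77.1 to 409 in luc β-catenin against 585 to 5404 in luc p53 tumours of set 1. In set 2 bile duct sums of 264 to 776 in lucOS β-catenin overlapped 233 to 4215 in lucOS p53 tumours. The 7 T and NK cell markers summed to 120 to 127 in lucOS β-catenin against 349 to 813 in lucOS p53 tumours of set 2, and the 5 endothelial markers to 2580 to 4850 against 5709 to 8239, both without overlap. In set 1 the T and NK cell sums overlapped, at 116 to 162 in lucOS β-catenin against 133 to 638 in lucOS p53 and 56.7 to 156 in luc β-catenin against 130 to 411 in luc p53 tumours. Endothelial sums of set 1 overlapped too, at 5259 to 14479 in lucOS β-catenin against 4750 to 5745 in lucOS p53 tumours. Among luc tumours they were 3477 to 7102 in β-catenin against 2202 to 11068 in p53 tumours. Sums of the macrophage, neutrophil, B cell, and stellate and fibroblast markers that were matched overlapped between the drivers in every comparison. LucOS β-catenin tumour 2 of set 1 had a stellate and fibroblast sum of 77865, against 8100 in tumour 1 of that group. Luc β-catenin tumours 1 and 3 had proliferation sums of 44172 and 22033, the highest and the lowest of their group. LucOS β-catenin tumour 3 of set 2 had the lowest of its group, 19854. The labels do not say whether the MYC of the genotypes is counted in the row named Myc. That row's signal was 147 and 363 in luc β-catenin tumours 1 and 3, against 125 and 295 in tumours 2 and 4. It was 375 in lucOS β-catenin tumour 3 of set 2, against 62.6 and 104 in tumours 1 and 2 of that group. The part of these levels in the results was not tested.

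**Figure D2:**
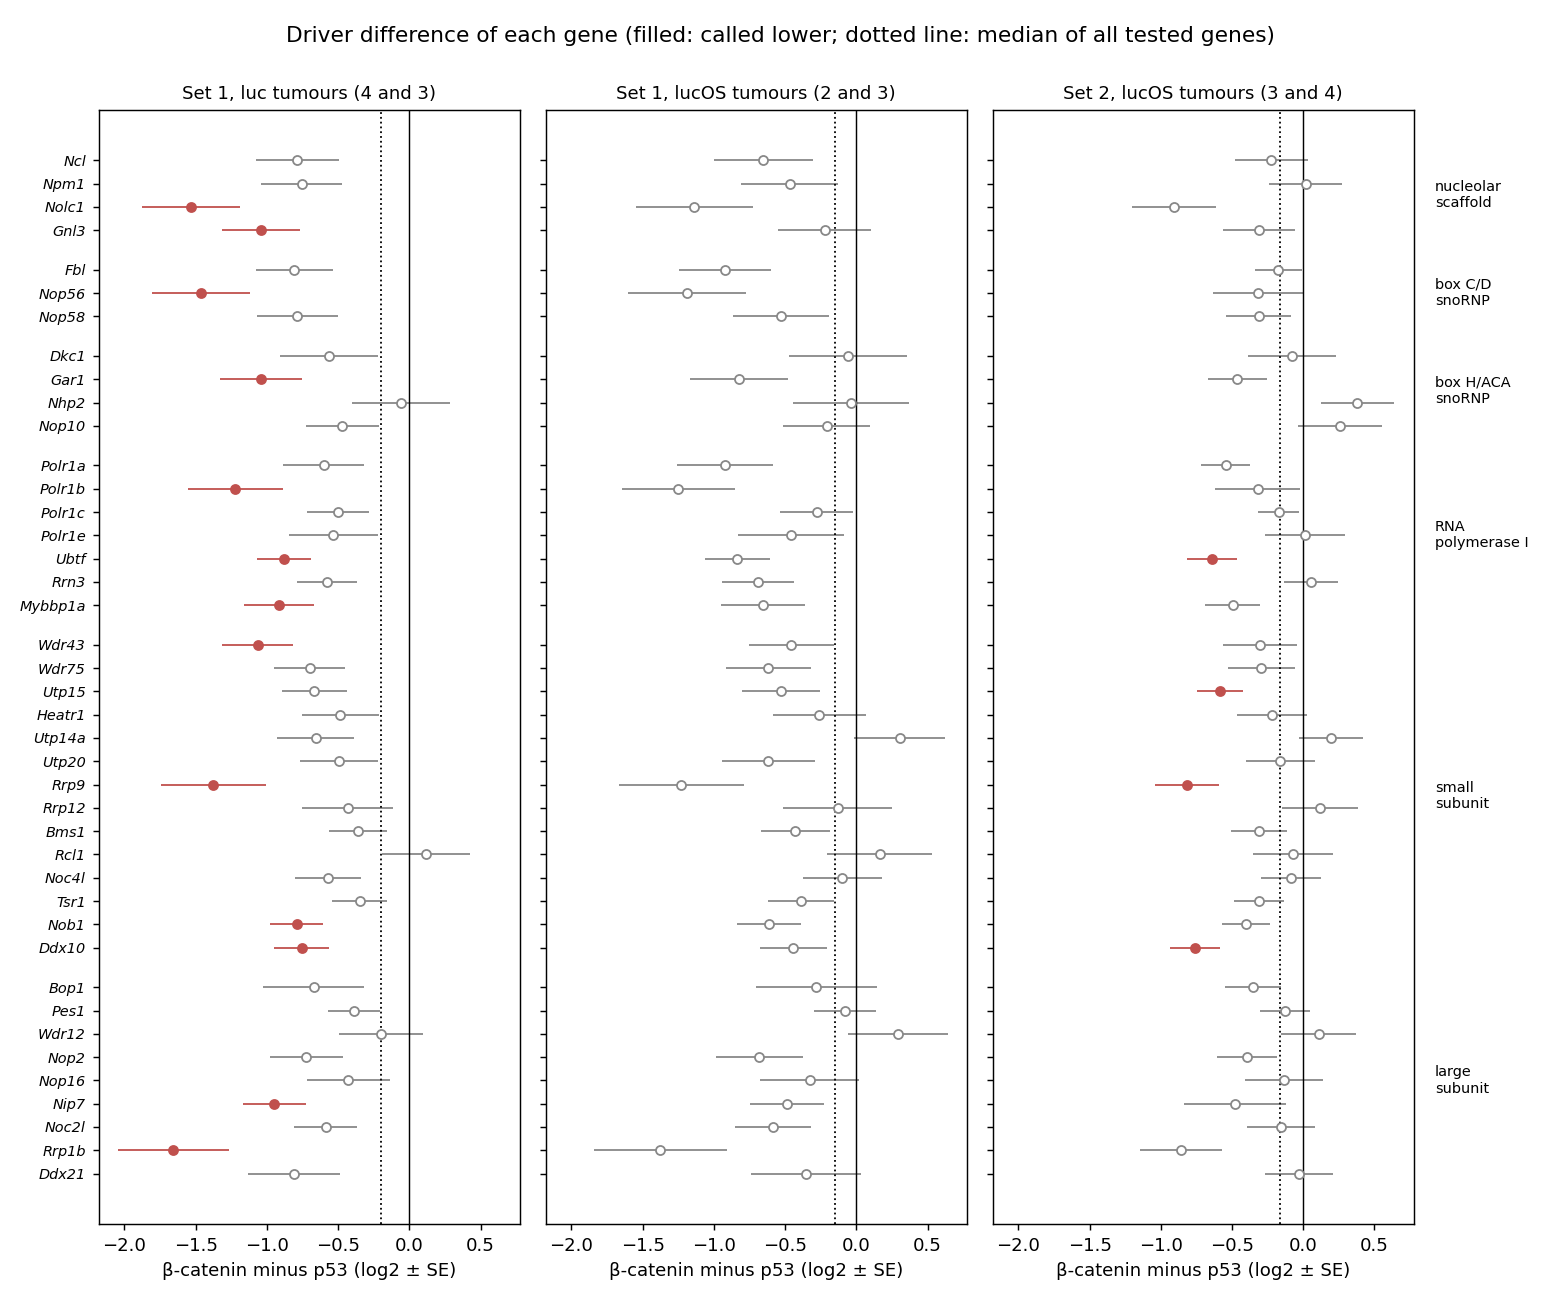
Difference of each member between β-catenin and p53 tumours (horizontal axis, log2, point with SE from limma), by role (vertical axis), in 3 comparisons with the numbers of β-catenin and p53 tumours in brackets. Filled points passed an adjusted p of 0.05, and the dotted line is the median of all genes tested: 13 members are filled in luc tumours of set 1, none in lucOS tumours of set 1 and 4 in set 2.

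Among luc tumours of set 1 the median difference was largest for the nucleolar scaffold proteins, at -0.91. Of Ncl (nucleolin), Npm1 (nucleophosmin), Nolc1 and Gnl3, the last 2 were called lower in luc tumours of set 1, 3 over both constructs (Ncl, Nolc1 and Gnl3) and none in set 2. Nolc1 (chr19:46075863-46085530), a chaperone that brings snoRNPs to the nucleolus, had a signal of 5608, 12192, 4897 and 11202 in luc β-catenin tumours against 19298, 28527 and 21160 in luc p53 tumours. Its values were 7911 and 5513 in lucOS β-catenin against 16446, 10389 and 17909 in lucOS p53 tumours of set 1. Every β-catenin tumour lay below every p53 tumour of the same construct. The difference was -1.53 ± 0.34 (log2, SE) among luc tumours (limma adjusted p = 0.0162) and -1.34 ± 0.27 over both constructs (adjusted p = 0.00516). In set 2 Nolc1 had 12247, 12566 and 6271 in lucOS β-catenin against 25142, 16893, 14695 and 18926 in lucOS p53 tumours. Those groups did not overlap either, but the difference of -0.91 ± 0.30 missed the threshold (adjusted p = 0.0614).

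Ncl and Npm1, 2 abundant nucleolar proteins that bind the precursor and assembling subunits, moved less. Ncl had a signal of 31227, 57240, 24578 and 58890 in luc β-catenin against 66342, 76199 and 65397 in luc p53 tumours, and 36806 and 32148 in lucOS β-catenin against 53386, 54463 and 54333 in lucOS p53 tumours of set 1. The groups were apart within each construct, and the mean difference over both was -0.72 ± 0.23 (limma adjusted p = 0.0362), a call lost after TMM scaling (adjusted p = 0.0984). In set 2 Ncl had 86905, 96793 and 46994 in lucOS β-catenin against 87352, 79810, 80121 and 96675 in lucOS p53 tumours, so that 2 β-catenin tumours were as high as p53 tumours and tumour 3 was lower. Npm1 had 26658, 44042, 18937 and 46024 in luc β-catenin against 55624, 55786 and 49880 in luc p53 tumours, and 23921 and 29841 in lucOS β-catenin against 33258, 39573 and 38253 in lucOS p53 tumours of set 1. The same separation held there, but the adjusted p over both constructs was 0.0609. In set 2 its values of 54992, 78958 and 35657 in lucOS β-catenin spanned those of 43420, 55558, 51370 and 63877 in lucOS p53 tumours. Gnl3 (nucleostemin), with a difference of -1.04 ± 0.28 among luc tumours, was at -0.22 ± 0.33 among lucOS tumours of set 1.

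**Figure D3:**
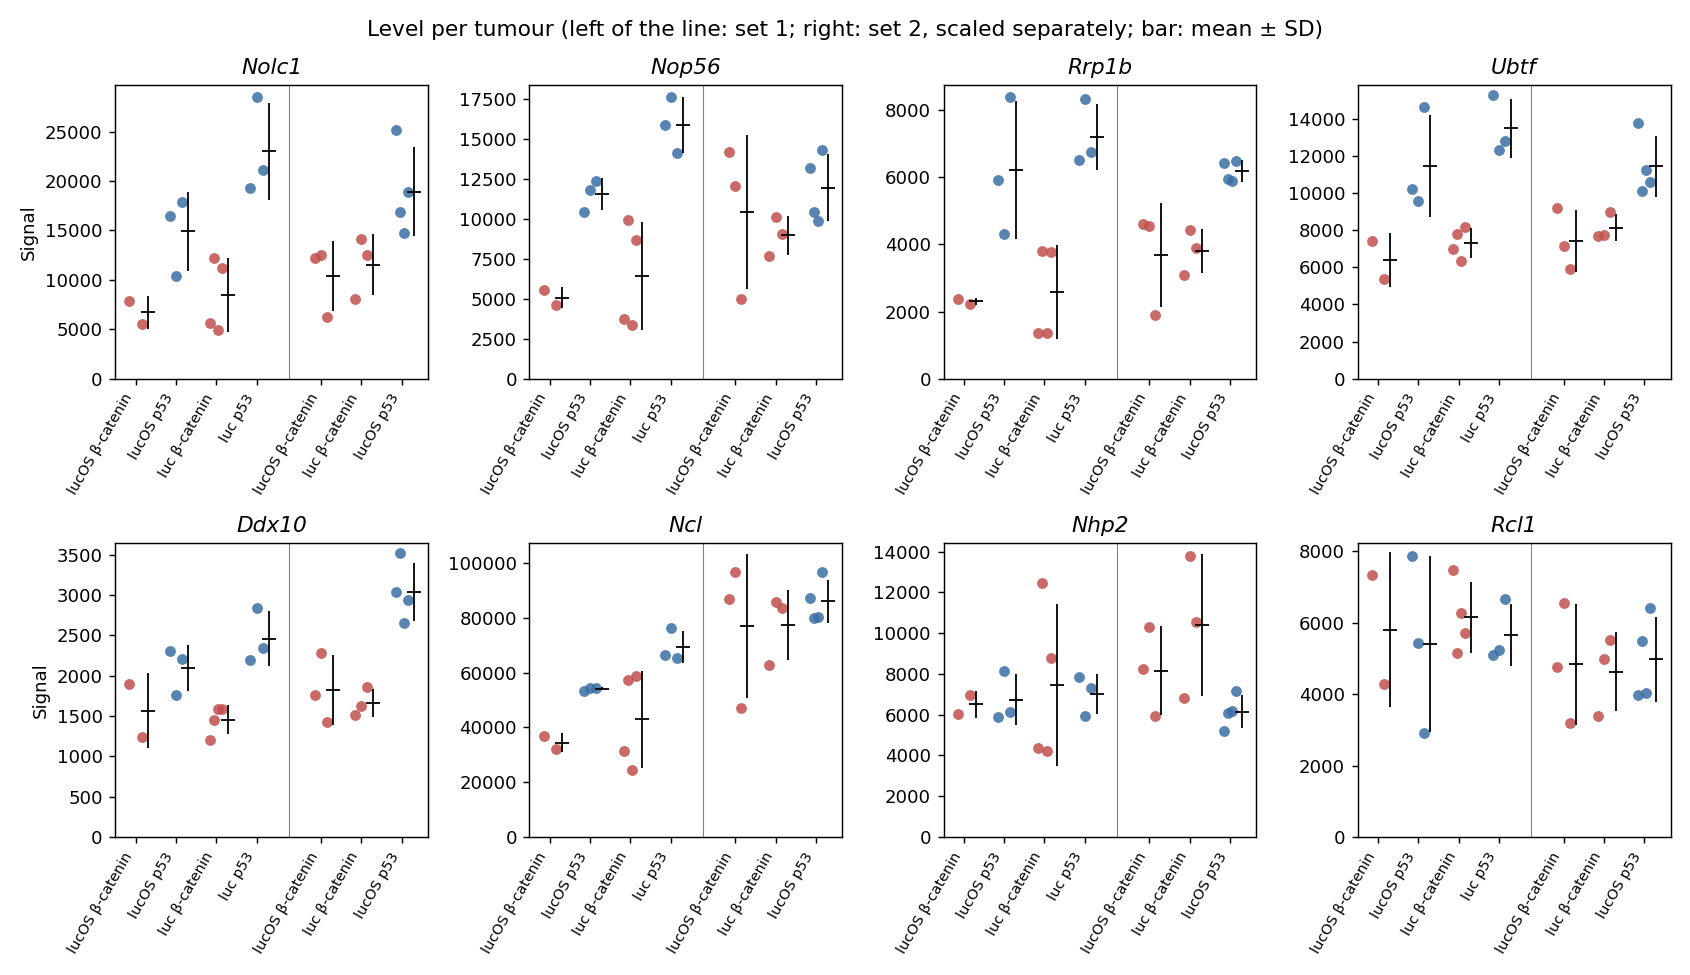
Signal (vertical axis, the authors' normalized signal, starting at 0) of 8 members in every tumour, by group (horizontal axis; red, β-catenin; blue, p53; bar, mean ± SD; set 2 right of the line and scaled separately). Within each construct of set 1, Nolc1, Nop56, Rrp1b and Ubtf are lower in every β-catenin tumour than in every p53 tumour, while Nhp2 and Rcl1 overlap between the drivers.

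All 3 box C/D snoRNP proteins (Fbl, Nop56, Nop58) were called lower in β-catenin tumours over both constructs of set 1, Nop56 alone in luc tumours, and none in set 2. The call of Nop58 was lost under TMM scaling, median centring, edgeR and DESeq2, and in 10 of the 12 fits that left out 1 tumour. Nop56 (chr2:130274430-130279313), a scaffold of the particle, had a signal of 3754, 9924, 3358 and 8690 in luc β-catenin against 15902, 17670 and 14117 in luc p53 tumours. It had 5534 and 4616 in lucOS β-catenin against 10452, 11847 and 12404 in lucOS p53 tumours of set 1. All 6 β-catenin tumours were thus below all 6 p53 tumours, as for 6 of 41 members, against 8.96% of all genes. The mean difference was -1.33 ± 0.27 (limma adjusted p = 0.00546). In set 2 Nop56 had 14199, 12082 and 5009 in lucOS β-catenin against 13226, 10467, 9906 and 14310 in lucOS p53 tumours, so that 2 of 3 β-catenin tumours lay inside the p53 range. An exon of Idh3b overlaps Nop56 on the other strand, and the sources used here do not say whether strand was counted.

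Fbl (fibrillarin), the methyltransferase of the particle, had 3828, 6703, 3298 and 6450 in luc β-catenin against 7174, 9245 and 9109 in luc p53 tumours. Its signal was 4217 and 4034 in lucOS β-catenin against 7663, 6148 and 10144 in lucOS p53 tumours of set 1. The groups were apart for both constructs, with a mean difference of -0.86 ± 0.21 (limma adjusted p = 0.0120). In set 2 Fbl had 7413, 7133 and 4865 in lucOS β-catenin against 7021, 7473, 6711 and 7523 in lucOS p53 tumours, a difference of -0.17 ± 0.17 that did not pass (adjusted p = 0.491). Nop58, the partner of NOP56, was at -0.66 ± 0.22 over both constructs of set 1 and -0.31 ± 0.23 in set 2.

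The 4 box H/ACA proteins did not move as 1 unit. Of Dkc1 (the pseudouridine synthase dyskerin), Gar1, Nhp2 and Nop10, only Gar1 was called, at -1.04 ± 0.29 among luc tumours and -0.93 ± 0.22 over both constructs (limma adjusted p = 0.0339 and 0.0114). Gar1 had a signal of 886, 1356, 838 and 1500 in luc β-catenin against 2565, 2384 and 1947 in luc p53 tumours, and 1119 and 1038 in lucOS β-catenin against 1321, 2884 and 1820 in lucOS p53 tumours of set 1. The groups were apart within each construct. Nhp2, which binds the same particle, had 4381, 12483, 4208 and 8776 in luc β-catenin against 7849, 5948 and 7298 in luc p53 tumours, and 6032 and 6974 in lucOS β-catenin against 5902, 8163 and 6134 in lucOS p53 tumours. The β-catenin values spanned or fell within the range of the p53 values, and the 95% interval of the mean difference ran from -0.63 to 0.54 (log2). Its sign turned under TMM scaling, to 0.12. In set 2 Nhp2 had 8240, 10296 and 5929 in lucOS β-catenin against 5178, 6086, 6200 and 7143 in lucOS p53 tumours, at 0.38 ± 0.26 (limma adjusted p = 0.321). Gar1 was not called in set 2, where its lucOS β-catenin and lucOS p53 values overlapped.

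Nop10, a small core protein of the particle, had 2271, 3926, 1914 and 3683 in luc β-catenin against 4537, 3249 and 4041 in luc p53 tumours. It had 2509 and 2763 in lucOS β-catenin against 2582, 3558 and 3068 in lucOS p53 tumours of set 1, and 4460, 5117 and 2278 against 2719, 3016, 2658 and 4370 in the lucOS β-catenin and p53 tumours of set 2. Groups overlapped in each comparison, and no adjusted p passed. Dkc1 was at -0.31 ± 0.27 over both constructs of set 1 and -0.08 ± 0.31 in set 2.

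A ratio of 2 genes within a tumour does not depend on that tumour's scaling factor. The pair Gar1 and Nhp2 was chosen after their values were seen, so its ratio is a description without a test, and it does not give the relative abundance of the proteins. In set 1 the Gar1 to Nhp2 signal ratio was 0.202, 0.109, 0.199 and 0.171 in luc β-catenin against 0.327, 0.401 and 0.267 in luc p53 tumours, and 0.185 and 0.149 in lucOS β-catenin against 0.224, 0.353 and 0.297 in lucOS p53 tumours. In set 2 it was 0.283, 0.199 and 0.229 in lucOS β-catenin and 0.263, 0.149 and 0.242 in luc β-catenin tumours, against 0.558, 0.359, 0.430 and 0.362 in lucOS p53 tumours. Every β-catenin tumour of a set had a lower ratio than every p53 tumour of that set, lucOS β-catenin tumour 3 of set 2 included. The signal of Gar1 by itself overlapped between lucOS β-catenin and lucOS p53 tumours of set 2. Of the other ratios that were computed, Rrp1b to Rcl1 is given below. The Nop56 to Fbl ratio overlapped between the drivers in lucOS tumours. It was 1.14 to 1.31 in lucOS β-catenin against 1.22 to 1.93 in lucOS p53 tumours of set 1. In set 2 it was 1.03 to 1.92 against 1.40 to 1.90. It was 0.981 to 1.48 in luc β-catenin against 1.55 to 2.22 in luc p53 tumours.

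**Figure D4:**
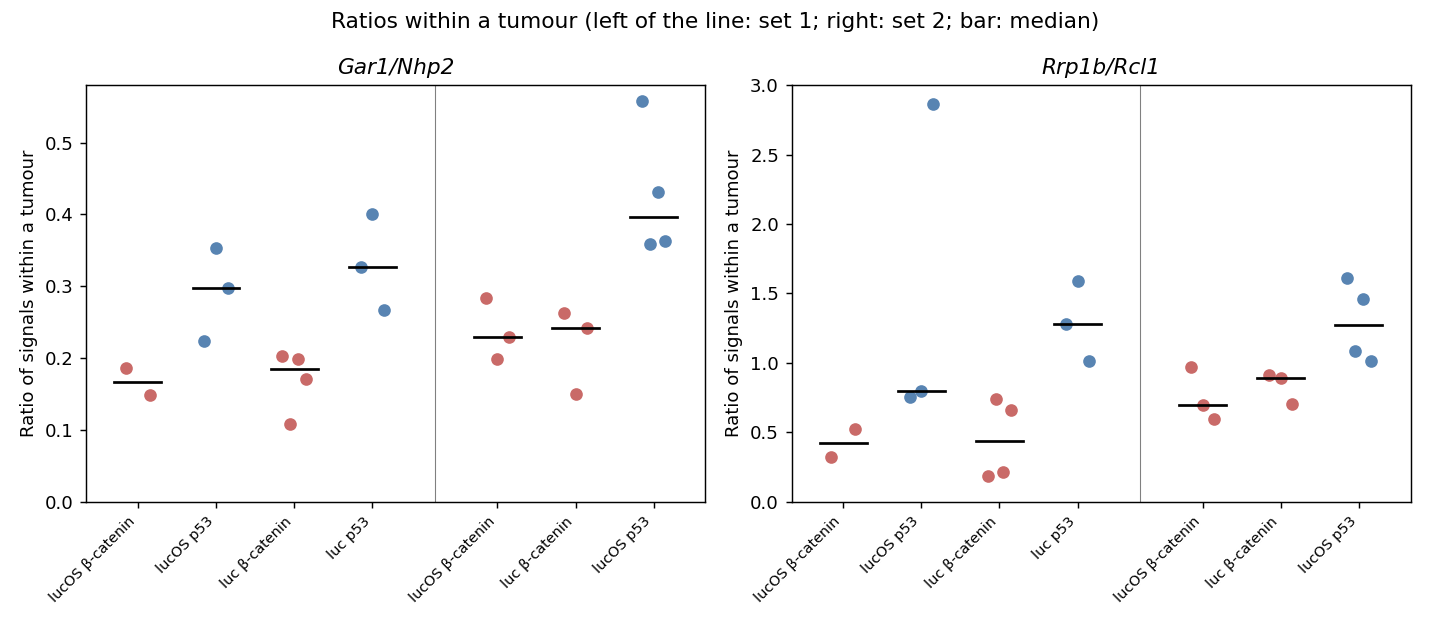
Ratio of the signals of Gar1 and Nhp2 (left) and of Rrp1b and Rcl1 (right) within each tumour (vertical axis, no unit, starting at 0), by group (horizontal axis; red, β-catenin; blue, p53; bar, median; set 2 right of the line). In both sets and for both ratios, every β-catenin tumour lies below every p53 tumour of the same set.

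Of 7 members that belong to RNA polymerase I and its factors, 3 were called lower in β-catenin tumours among luc tumours of set 1 (Polr1b, Ubtf and Mybbp1a), 5 over both constructs (these with Polr1a and Rrn3), none among lucOS tumours of set 1, and Ubtf in set 2. After TMM scaling Ubtf alone of them was called among luc tumours, and Polr1b, Ubtf and Mybbp1a over both constructs. Ubtf (chr11:102304560-102319742), which keeps ribosomal DNA open for transcription, had a signal of 6979, 7784, 6363 and 8146 in luc β-catenin against 15295, 12326 and 12813 in luc p53 tumours. Its signal was 7418 and 5349 in lucOS β-catenin against 10193, 9554 and 14624 in lucOS p53 tumours of set 1, and 9200, 7147 and 5888 in lucOS β-catenin against 13792, 10116, 11249 and 10601 in lucOS p53 tumours of set 2. All β-catenin tumours were below all p53 tumours of their set in these comparisons. The difference was -0.88 ± 0.19 in luc tumours (limma adjusted p = 0.0143), -0.84 ± 0.23 in lucOS tumours of set 1 (0.0620) and -0.64 ± 0.17 in set 2 (0.0341). After TMM scaling the adjusted p in set 2 was 0.0789, and without lucOS β-catenin tumour 3 the call in set 2 was also lost.

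Polr1b, the second largest subunit of the enzyme, had 2027, 5058, 2109 and 4778 in luc β-catenin against 6708, 7749 and 7896 in luc p53 tumours. It had 3045 and 2753 in lucOS β-catenin against 7679, 5117 and 8299 in lucOS p53 tumours of set 1, again without overlap of any β-catenin with any p53 tumour. The mean difference was -1.23 ± 0.26 (limma adjusted p = 0.00627). In set 2 its values of 7222, 5856 and 2940 in lucOS β-catenin overlapped those of 7061, 5878, 4944 and 7358 in lucOS p53 tumours. Rrn3, the initiation factor whose upstream sequence holds CACGTG at 2 places, had 1843, 2366, 2010 and 2692 in luc β-catenin against 3171, 3233 and 3462 in luc p53 tumours, and 2233 and 1743 in lucOS β-catenin against 4378, 2519 and 2920 in lucOS p53 tumours of set 1. It was apart within each construct, at -0.63 ± 0.16 over both (adjusted p = 0.0158), a call lost after TMM scaling (0.0568). In set 2 the β-catenin values of Rrn3 spanned the p53 values, with 4916, 2958 and 3730 in lucOS β-catenin against 3923, 3256, 3794 and 3636 in lucOS p53 tumours.

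Of the other RNA polymerase I members, Mybbp1a, a nucleolar regulator, was at -0.78 ± 0.19 and Polr1a, the largest subunit, at -0.76 ± 0.22 over both constructs. In set 2 these 2 genes were at -0.50 ± 0.19 and -0.55 ± 0.17, both without overlap between the groups but with limma adjusted p-values of 0.100 and 0.0575. Polr1c, a subunit shared with RNA polymerase III, and Polr1e were at -0.39 ± 0.17 and -0.50 ± 0.24 over both constructs, and were called in no comparison. The product of the enzyme is listed as Rn45s, the ribosomal RNA precursor, whose signal depends on how much ribosomal RNA a library retains. It ran from 548985 to 705753 in β-catenin tumours of set 1 against 537874 to 804664 in 5 of the 6 p53 tumours, while luc p53 tumour 1, with a signal of 4353170, was highest. It ran from 277893 to 466346 in β-catenin against 296831 to 442654 in p53 tumours of set 2. The groups overlapped, and its difference over both constructs was -0.70 ± 0.45 (limma adjusted p = 0.268).

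Of 14 small-subunit members, 4 were called lower in luc tumours of set 1 (Wdr43, Rrp9, Nob1 and Ddx10), 6 over both constructs (these with Wdr75 and Utp15) and 3 in set 2 (Utp15, Rrp9 and Ddx10). Rrp9 (chr9:106475963-106485424), the protein of the U3 snoRNP that starts processing, had a signal of 869, 1985, 1052 and 1934 in luc β-catenin against 3635, 3443 and 3588 in luc p53 tumours. It had 1543 and 1086 in lucOS β-catenin against 3753, 1692 and 4413 in lucOS p53 tumours of set 1, and 2021, 1877 and 1234 in lucOS β-catenin against 3559, 2180, 2971 and 3252 in lucOS p53 tumours of set 2. The groups of each comparison were apart. The differences were -1.38 ± 0.37 in luc tumours of set 1 (limma adjusted p = 0.0307) and -0.81 ± 0.22 in set 2 (0.0358). After TMM scaling these adjusted p-values were 0.0558 and 0.0669.

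Ddx10 (chr9:53098635-53248053), an RNA helicase, had 1205, 1448, 1583 and 1586 in luc β-catenin against 2193, 2844 and 2345 in luc p53 tumours. In set 2 it had 1757, 2281 and 1423 in lucOS β-catenin against 3044, 3522, 2649 and 2941 in lucOS p53 tumours. Both comparisons were free of overlap, while in lucOS tumours of set 1 values of 1892 and 1235 in β-catenin overlapped 2306, 1765 and 2202 in p53 tumours. The difference was -0.76 ± 0.20 in luc tumours (limma adjusted p = 0.0279) and -0.76 ± 0.18 in set 2 (0.0214). Ddx10 was the only member that edgeR's quasi-likelihood test called in set 2, and its limma call there was lost without lucOS p53 tumour 1 or lucOS β-catenin tumour 3.

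Utp15 (chr13:98246845-98263041), a processome subunit of the branch that links transcription to processing, had 2065, 2002 and 1362 in lucOS β-catenin against 2768, 2409, 2886 and 2626 in lucOS p53 tumours of set 2. The difference of -0.58 ± 0.16 passed (limma adjusted p = 0.0353), with no overlap. In set 1 Utp15 had 1137, 1735, 1533 and 1565 in luc β-catenin against 2163, 2745 and 2159 in luc p53 tumours, apart, and 1934 and 1190 in lucOS β-catenin against 2190, 1786 and 2681 in lucOS p53 tumours, which overlapped. Nob1, the nuclease that makes the final cut of small-subunit RNA, was at -0.70 ± 0.15 over both constructs (adjusted p = 0.00629) and was below all p53 tumours in all β-catenin tumours of set 1. Wdr43 and Wdr75, of the same branch as Utp15, were at -0.76 ± 0.19 and -0.66 ± 0.19.

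Rcl1 and Utp14a did not follow the members above. Rcl1, which in yeast binds the processome GTPase BMS1, had a signal of 7468, 5154, 6275 and 5714 in luc β-catenin against 5097, 5230 and 6669 in luc p53 tumours. It had 7340 and 4278 in lucOS β-catenin against 7873, 5422 and 2923 in lucOS p53 tumours of set 1, and 4772, 6559 and 3180 in lucOS β-catenin against 3976, 5479, 4027 and 6421 in lucOS p53 tumours of set 2. All groups overlapped, and the 95% interval of the mean difference in set 1 ran from -0.38 to 0.67. Utp14a, whose yeast counterpart activates a processome helicase, had 1043, 1862, 1338 and 1774 in luc β-catenin against 2255, 3014 and 1818 in luc p53 tumours, but 1498 and 2084 in lucOS β-catenin against 1378, 1132 and 1879 in lucOS p53 tumours of set 1. Its differences of -0.66 ± 0.27 and 0.30 ± 0.32 had opposite signs, and the test of that contrast between constructs did not pass (limma adjusted p = 0.9998, unadjusted p = 0.0421). Its set 2 values were 2374, 3014 and 1891 in lucOS β-catenin against 2135, 1511, 2082 and 2812 in lucOS p53 tumours, overlapping. The remaining small-subunit members (Heatr1, Utp20, Rrp12, Bms1, Noc4l and Tsr1) were called in no comparison, with differences over both constructs of -0.56 (Utp20) to -0.28 (Rrp12).

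Of 9 large-subunit members, Nip7 and Rrp1b were called lower in luc tumours of set 1, these with Nop2 and Noc2l over both constructs, and none in set 2. Rrp1b (chr17:32036100-32062865), a nucleolar protein bound to large-subunit precursors, showed the largest difference of the 41 members in set 1. It had 1371, 3790, 1353 and 3768 in luc β-catenin against 6522, 8328 and 6741 in luc p53 tumours, and 2379 and 2224 in lucOS β-catenin against 5921, 4303 and 8384 in lucOS p53 tumours. No β-catenin tumour reached a p53 tumour, and the difference was -1.66 ± 0.39 in luc tumours and -1.52 ± 0.30 over both constructs (limma adjusted p = 0.0196 and 0.00517). In set 2 Rrp1b had 4611, 4553 and 1887 in lucOS β-catenin against 6419, 5945, 5876 and 6493 in lucOS p53 tumours, also apart, at -0.86 ± 0.29 (adjusted p = 0.0656). An exon of Hsf2bp overlaps it on the other strand. Set against Rcl1, again a pair chosen after its values were seen, the Rrp1b to Rcl1 ratio was at most 0.735 in β-catenin against at least 0.752 in p53 tumours of set 1, and at most 0.966 against at least 1.01 in set 2.

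The PES1, BOP1 and WDR12 complex, which matures the large subunit's RNA, had no member called in any comparison. Wdr12 had a signal of 1210, 3054, 1993 and 2772 in luc β-catenin against 2302, 2647 and 2383 in luc p53 tumours, and 2921 and 1745 in lucOS β-catenin against 1879, 1775 and 1887 in lucOS p53 tumours of set 1. Set 2 gave 3696, 4115 and 2018 in lucOS β-catenin against 2463, 2961, 2856 and 3414 in lucOS p53 tumours. In each of these comparisons the β-catenin values spanned the p53 values, and the 95% interval of the mean difference in set 1 ran from -0.46 to 0.55. Pes1 and Bop1 were at -0.24 ± 0.14 and -0.47 ± 0.28 over both constructs. Nip7, known from yeast as an assembly factor of the large subunit, was at -0.72 ± 0.17, Nop2, an RNA methyltransferase, at -0.70 ± 0.20, and Noc2l, whose yeast counterpart takes part in export of the precursor particle, at -0.59 ± 0.17. Nop16 and the helicase Ddx21 were called in no comparison, at -0.38 ± 0.23 and -0.58 ± 0.25.

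Groups that did not overlap were common without a call. Every luc β-catenin tumour lay below every luc p53 tumour for 28 of 41 members, against 23.2% of all genes, and the same held for 21 members among lucOS tumours of set 1, against 24.3%. In set 2 it held for 9 members, against 22.5% of all genes, so the members' share of 9 in 41 was near that of all genes. No member lay above in every β-catenin tumour in any of these comparisons, and the share of all genes that did is not given here.

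The other genes of the pathway were read from a list of 125 genes outside the 41. In luc tumours of set 1, 28 of 125 (22.4%) were called lower in β-catenin tumours and none higher, against 9.16% of all genes called lower. In lucOS tumours 3 (2.4%) were called lower, against 2.59%, and over both constructs 54 (43.2%), against 18.6%, with 2 higher. In set 2 the share was below that of all genes, with 8 called lower (6.4%), against 10.9%, and none higher. After TMM scaling, Ddx55, Dis3, Naf1, Pdcd11, Polr1d and Wdr74 alone of the 125 were called lower in luc tumours of set 1. Of all genes, 4.22% were called lower there under that scaling. Under the deposited scaling the median differences of the 125 genes were -0.50, -0.32, -0.43 and -0.18, in the order above. The largest in set 1 were those of Dis3, a catalytic subunit of the RNA exosome (-1.29 ± 0.18 over both constructs), Naf1, an assembly factor of box H/ACA snoRNPs (-1.23 ± 0.27), and Exosc8, an exosome subunit (-1.04 ± 0.18). Pdcd11 and Utp4, of the small-subunit processome, followed at -0.99 ± 0.20 and -0.97 ± 0.24. Exosc8 and Dis3 were called lower in set 2 as well (-1.08 ± 0.24 for Exosc8), before Imp4, Pdcd11 and the exosome nuclease Exosc10; the call of Pdcd11 there was lost after TMM scaling (limma adjusted p = 0.0929). The genes called higher in set 1 were Nop9 (0.51 ± 0.17) and Zfp593 (1.18 ± 0.37).

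The second question of the design is whether the antigen construct moved these genes within a driver. No member was called between lucOS and luc tumours, nor was any of all genes (0%), in p53 tumours of set 1 or in β-catenin tumours of either set, and edgeR and DESeq2 called no member either. Among p53 tumours of set 1 the members' median difference was -0.25 (log2, lucOS minus luc), against -0.001 for all genes. Of 41 members 38 were negative, while 49.91% of all genes were positive. The unadjusted limma p was under 0.05 for 3 members. Every lucOS p53 tumour lay below every luc p53 tumour for 11 of 41 members, against 5.07% of all genes. The same held for none of the 41 among β-catenin tumours of set 1 or set 2, against 2.95% and 2.36% of all genes. The lowest unadjusted p was that of Utp14a, at -0.69 ± 0.29 (limma adjusted p = 0.952), followed by Nip7 (adjusted p = 0.952) and Gnl3 (0.952).

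Among β-catenin tumours the members' median difference between lucOS and luc was -0.08 in set 1 and -0.11 in set 2, with no unadjusted p under 0.05 in either. Ubtf had 9200, 7147 and 5888 in lucOS β-catenin against 7693, 7740 and 8988 in luc β-catenin tumours of set 2, and Nhp2 had 8240, 10296 and 5929 against 6816, 13808 and 10573, both overlapping. In the interaction test of set 1, which asks whether the driver difference depends on the construct, limma called no member, 1 had an unadjusted p under 0.05, and edgeR and DESeq2 called none. The members' median interaction was 0.22, the driver difference with lucOS minus that with luc.

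A feature that the choice of genes did not use is what lies inside them. In the GENCODE vM21 annotation of GRCm38, 7 of 41 members (17.1%) contain snoRNA genes on the same strand, 21 in all, against 1.18% of 21951 protein-coding genes and 2.4% of the other pathway genes. Nop56 contains 5, Nop58 4, Ncl, Gnl3 and Wdr43 3 each, Tsr1 2 and Dkc1 1. Of these 7 hosts, 5 were called lower over both constructs of set 1 (Nop56, Nop58, Ncl, Gnl3 and Wdr43), beside 22 of all 41 members and 18.6% of all genes, and Tsr1 and Dkc1 were not. After TMM scaling only Nop56 and Wdr43 of the hosts were called. Rcl1 contains the microRNA gene Mir101b. The exons of 16 of the 41 members overlap a gene on the other strand, among them Gnl3, Nop56, Nhp2, Rrp9, Wdr12, Utp14a and Rrp1b.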

How the data were processed

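Liver tumour transcripts were sequenced from TruSeq libraries of total RNA, per the labels' protocols. The submitters' processing notes name TopHat2, featureCounts, DESeq2 and mm10, without versions or options, and strand use is not given in the sources used here. The authors deposited normalized signal in 2 tables, and its values were whole reads divided by 1 factor per tumour (100% whole within 0.01 reads). For genes with several transcript rows in set 1 (8 of the 41 members), the row with the highest mean was used.

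Genes with a signal of at least 10 in 2 tumours (set 1) or 3 (set 2) were kept, and log2(signal + 1) entered limma (version 3.58.1, R 4.3.3) with a mean-dependent prior, 1 model per set and Benjamini-Hochberg adjustment over all genes; fold changes are on that scale. Calls needed an adjusted p under 0.05, from limma except where edgeR or DESeq2 is named. The fit was tested on simulated data. Alternatives were TMM scaling, median centring, another pseudocount, no filter, edgeR 4.0.16, DESeq2 1.42.0 on recovered reads, other subsets, and leaving out each tumour. Gene positions come from GENCODE vM21 (GRCm38, the mm10 assembly), and sequences are RefSeq's on GRCm38.p6.

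Per-tumour values are given for members called in a driver comparison of each set, the 3 largest and 3 smallest differences of each driver comparison, and Ncl, Npm1, Fbl, Polr1b, Ubtf and Rrn3; those of Gar1 were chosen after its values were seen. The members and lists were chosen with earlier results of these data known.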

Additional observations from a re-analysis of the deposited data

Results flagged for a closer look

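Polr1c in lucOS p53 tumour 2 of set 2 stood far from the other tumours of its group, with a signal of 2757 against 3114 to 3153 in the other 3. It was the only such case among the 82 groups of 4 tumours examined (41 members in 2 groups), where chance alone marks about 1 in 20, and its origin was not tested.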

How the results depend on the processing

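No paired analysis was possible because the labels give no replicate numbers shared between groups. A pseudocount of 10, no filter and sums over transcripts kept every direction and call count within 1.5 times. In luc tumours of set 1 the members called lower were 6 with TMM and 3 with edgeR (main count 13), and over both constructs 12 and 11 (main count 22). All genes called lower were 679 and 675 of 16108 in luc tumours (main count 1475). Over both constructs they were 1712 and 1742 (main count 2994). In set 2 (main count 4) the members called lower were 1 with TMM, 1 with median centring, 1 with edgeR, 2 with DESeq2 and 1 with the compared groups fitted alone. In the same order, 1055, 1116, 894, 1711 and 1529 of all genes were called lower. The main count there was 1706 of 15625 genes, and DESeq2 tested 15443. Leaving out 1 tumour at a time gave 1 to 14 members in luc tumours, lowest without luc p53 tumour 2 (2 without tumour 1), 0 to 2 in lucOS tumours of set 1, 9 to 23 over both constructs, lowest without lucOS β-catenin tumour 2, and 0 to 5 in set 2, where the count was 0 without lucOS p53 tumour 1 or lucOS β-catenin tumour 3. All genes called lower ran from 341 to 1133 in these fits of luc tumours and from 673 to 1389 in those of set 2. The members' median difference ran from -0.40 to 0.036 in set 2 with 1 tumour left out. For lucOS minus luc in β-catenin tumours it ran from -0.25 to 0.079 in set 1 and from -0.23 to 0.136 in set 2. Where an arm was left with 1 tumour, it was assumed to vary like the others.

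Single members near 0 changed sign, and the cause was not tested. Nhp2 was positive under TMM, median centring, edgeR and DESeq2: 0.13, 0.046, 0.27 and 0.26 in luc tumours, 0.11, 0.025, 0.095 and 0.094 in lucOS tumours of set 1, and 0.12, 0.035, 0.18 and 0.18 over both constructs. Its ranges with 1 tumour left out were -0.36 to 0.16, -0.14 to 0.11 and -0.20 to 0.063 in the same order. Wdr12 was at 0.070 with edgeR and 0.063 with DESeq2 in luc tumours, with left-out ranges of -0.37 to 0.072 (luc), -0.081 to 0.66 (lucOS, set 1), -0.14 to 0.23 (both constructs) and -0.089 to 0.43 (set 2). Rcl1 in set 2 was at 0.079 with TMM, 0.044 with centring, 0.11 with edgeR and 0.11 with DESeq2, and ranged from -0.32 to 0.20 there, from -0.22 to 0.55 in lucOS tumours and from -0.054 to 0.34 over both constructs of set 1. In set 2 Fbl was at 0.0005057 with DESeq2, and against the 1 JAX p53 tumour Npm1 was at -0.25, Nop10 at -0.23, Utp14a at -0.24 and Wdr12 at -0.12. Left-out ranges in set 2 were -0.42 to 0.097 (Ncl), -0.26 to 0.31 (Npm1), -0.28 to 0.019 (Fbl), -0.61 to 0.15 (Nop56), -0.59 to 0.061 (Polr1b) and -0.13 to 0.23 (Rrn3).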
